A study of Mus musculus with 3 samples.

Results

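Chemokines are small secreted proteins that steer the movement of leukocytes, and the genes of chemokine ligands and of their receptors are described here in mouse liver, cell class by cell class. The members were all rows of the count tables whose gene symbol begins with Ccl, Cxcl, Ccr, Cxcr, Xcl or Xcr followed directly by a digit, together with Cx3cl1 and Cx3cr1. They came to 60 of 55357 genes, of which 41 encode ligands, pseudogenes included, and 19 encode receptors. The rule reads gene symbols alone. Liver cells were profiled by droplet single-cell RNA sequencing in 3 libraries, and every library held the pooled cells of 2 wild-type male C57BL/6 mice that were 8 weeks old at the start. Control mice (CON) were left untreated. High-fat diet mice (HFD) ate a diet with 60% of its energy as fat for 4 months, and CCl4 mice stayed on chow for 3 months and then had 4 weeks of intraperitoneal CCl4, a liver toxin, 2 injections of 0.1 mL of a 10% solution a week. Hepatocytes and non-parenchymal cells were separated after collagenase perfusion and recombined in equal parts, so shares of cell classes do not reflect those of the tissue. With 1 library per group, a condition cannot be told apart from its library, no test between conditions was possible, and no p-value is given.

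Chemokine receptors are G protein-coupled receptors that signal mainly through Gi proteins and turn a gradient of ligand into directed movement. Ligands are named for the spacing of their first cysteines (CC, CXC, XC, CX3C), and most inflammatory ligands share receptors. In liver, resident macrophages (Kupffer cells), sinusoidal endothelium, stellate cells and bile duct cells are well-known sources, and monocytes, neutrophils and lymphocytes are the usual responders.

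The libraries held 11245, 12984 and 12761 cell barcodes and 49613255, 34985786 and 34061186 UMIs (unique molecular identifiers, each counting 1 captured RNA molecule), with medians of 2939, 2336 and 2173 UMIs per barcode, here and below in the order control, high-fat diet, CCl4. Members took 215952, 81752 and 63744 UMIs, or 4363, 2339 and 1875 CPM (counts per 1000000). Cells were clustered without the member genes and 18 classes were named from marker lists, each written with "-like". Levels are CPM over the UMIs of a class in a library, with an exact Poisson 95% interval in brackets that covers counting error only, not the spread between mice. Where a class had 0 UMIs of a gene, the brackets give the level that 3 UMIs would have made. Between 2 libraries 36 to 52 barcodes were shared, none by all 3. Several classes lay in different clusters by library. Most hepatocyte-like cells were in clusters 2, 10 and 15 of the control library, 0, 16 and 9 of the high-fat diet library and 1 and 3 of the CCl4 library. The T cell-like cells were mostly in clusters 13, 18 and 25, in 5 and 21, and in 4, B cell-like cells in 7, 11 and 8, NK cell-like cells in 17, 44 and 20 and erythroid cell-like cells in 34, 32 and 33. Neutrophil-like cells were mostly in clusters 29, 36 and 45 of the control library and 26 of the others, classical monocyte-like cells in 39 and 6, and plasmacytoid dendritic cell-like cells in 31 and 30. Kupffer cell-like, endothelial cell-like and cholangiocyte-like cells shared 1 cluster each. An unnamed cluster of 134 cells had the endothelial marker Cdh5 and Gpr182 among its leading genes and held 2, 53 and 79 cells. It was left out of the endothelial cell-like class, which held 144, 265 and 81 cells. Hepatocyte RNA was present in every class. The median level of 12 hepatocyte markers relative to hepatocyte-like cells ran from 0.09 in plasma cell-like to 0.465 in neutrophil-like cells of the control library, from 0.326 to 0.863 in the high-fat diet library and from 0.368 to 0.863 in the CCl4 library. Serum amyloid A genes summed to 40171, 1022 and 301 CPM in hepatocyte-like cells, and a list of immediate-early and stress genes was highest in the control library in most classes, with 17302, 9279 and 10327 CPM in Kupffer cell-like and 7198, 5195 and 4201 CPM in T cell-like cells.

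Of the 41 ligands, 26, 28 and 21 reached 10 UMIs in the 3 libraries, and of the 19 receptors 17, 16 and 12 did. In every library 8 members had 0 UMIs, namely Ccl19-ps1, Ccl19-ps3, Ccl21b, Ccl21d, Ccl26, Ccl27b, Cxcl15 and Ccr1l1. Ccl21a, Ccl21b and Ccl21d, Ccl27a and Ccl27b, and Ccl19 with its pseudogenes are near-identical copies whose reads the counting could split or drop, so their values are uncertain. A class was called a source of a ligand, or a bearer of a receptor, where it held at least 10 UMIs and its CPM plus 5 was at least 4 times that of all other cells of the library. Hepatocyte-like cells could hardly pass this rule, since hepatocyte RNA lay in every other class. Their 12 marker genes summed to 82709, 127095 and 141915 CPM in the class and 23821, 77336 and 105067 CPM in all other cells. A member without a hepatocyte-like source may therefore still be expressed in hepatocytes. By this rule 19, 21 and 15 ligands had a source and 12, 13 and 9 receptors had a bearer. Among all genes with at least 10 UMIs the same rule gave 23.6%, 17.6% and 13.3% with at least 1 such class. Since a member reaches 10 UMIs more easily where a class expresses it strongly, the counts describe where the members lie and are no test. The classes with the most RNA of a member are described below, and some members had further sources or bearers that are not listed. At least 1 library gave a source for 21 ligands, all 3 did for 14, and 13 of these shared a source class throughout. At least 1 library gave a bearer for 13 receptors, all 3 for 9, and 8 shared a bearing class throughout. No share over all genes was computed for overlap between libraries, so how far these counts are particular to the members was not tested. Levels and orders of the libraries in the next paragraphs are as counted, and they depend on the scale. Where a class had at least 50 cells in both libraries, 42 of 51 source or bearer combinations were lower than in the control library with the high-fat diet and 33 of 39 with CCl4, at any size of difference. When hepatocyte free RNA was taken off, by subtracting the hepatocyte-like profile in proportion to the hepatocyte marker level of the class, 24 and 21 of these lower ratios turned to above 1. This subtraction also moved the marker genes of the classes. Their median ratios to the control then ran from 0.812 to 1.86 with the high-fat diet and from 0.83 to 1.75 with CCl4. The combinations were picked by a high level in either library, and no share over all genes was computed for them.

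**Figure D1:**
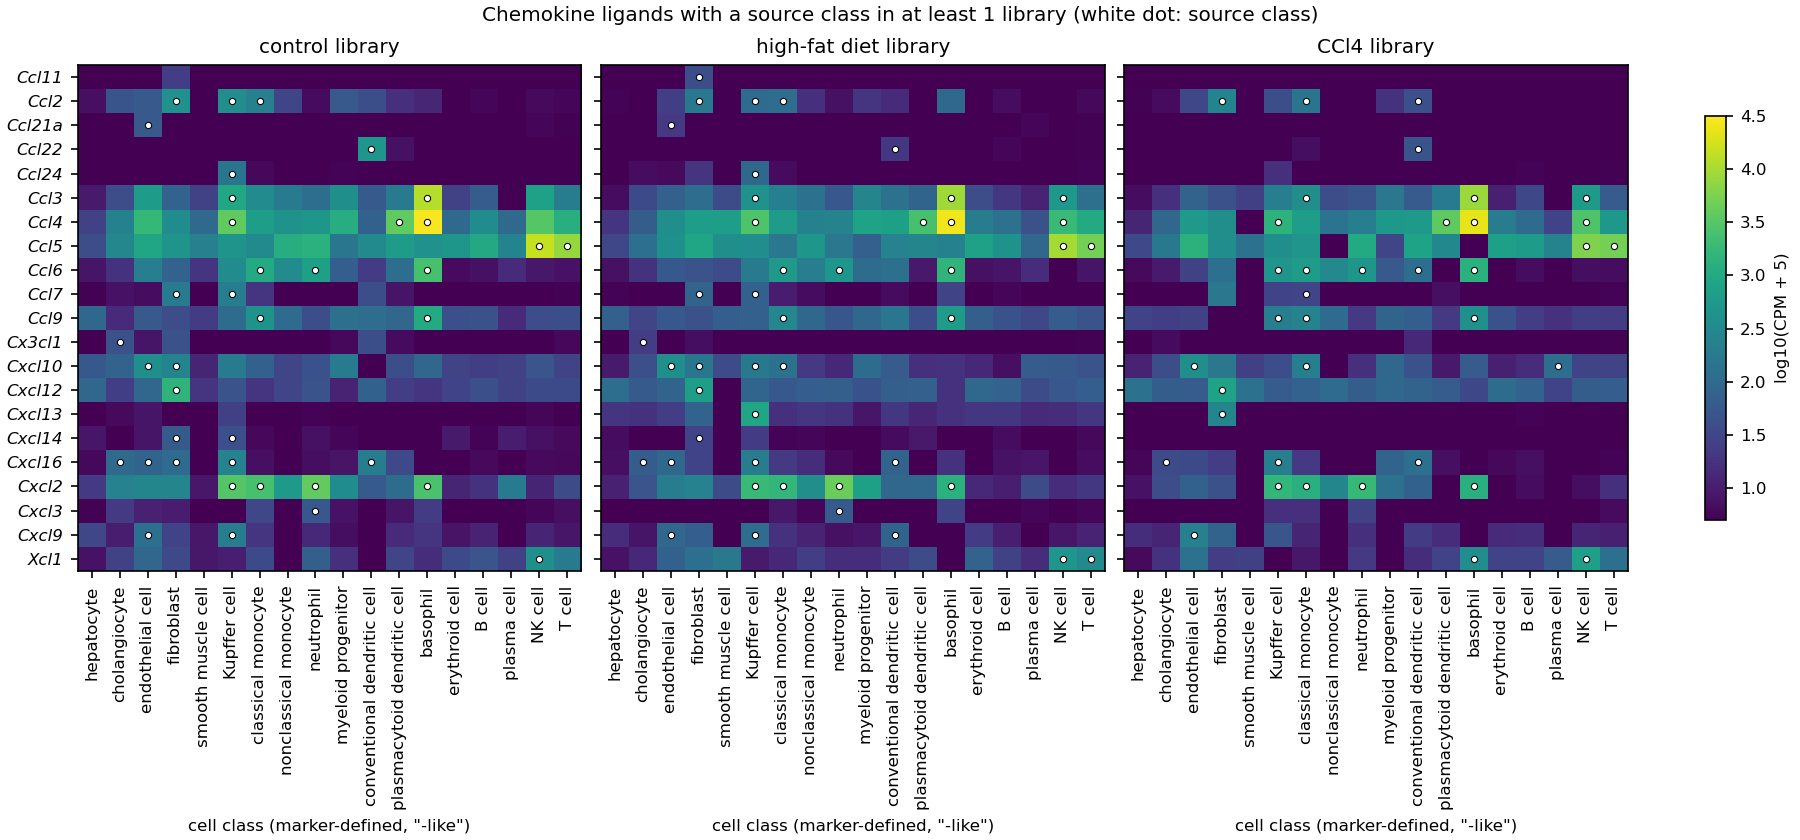
Level of each ligand with a source in at least 1 library (rows) in each cell class (columns), 1 panel per library, as log10 of CPM plus 5 in colour. Basophil-like cells carried Ccl3 and Ccl4, NK cell-like and T cell-like cells carried Ccl5, neutrophil-like cells carried Cxcl2 and fibroblast-like cells carried Cxcl12 in all 3 panels.

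The most abundant members were inflammatory CC ligands. Ccl4, which attracts leukocytes to inflamed tissue, stood highest in basophil-like cells, at 28889 CPM (28347 to 29439) in the control, 26179.7 (25064 to 27332) in the high-fat diet and 22740.1 (21198 to 24365) in the CCl4 library. These were few cells, 94, 32 and 14, yet each library's interval lay far above the 703, 313 and 257 CPM of all its other cells. Ccl3, a ligand of Ccr1, followed the same class at 11739 (11394 to 12092), 9000.5 (8351 to 9687) and 8425 CPM (7497 to 9437). Outside basophil-like cells Ccl4 reached 3713, 2458 and 3639 CPM in plasmacytoid dendritic cell-like, 3786, 2872 and 1419 CPM in Kupffer cell-like and 3179, 1802 and 2881 CPM in NK cell-like cells. The CCl4 library had the lowest Ccl4 value in Kupffer cell-like cells (31 cells) but not in the plasmacytoid dendritic or NK cell-like classes. Ccl5, made by activated T and NK cells, was led by NK cell-like cells with 14598 (14414 to 14784), 9676 (9322 to 10041) and 5792 CPM (5649.8 to 5938), and T cell-like cells held 7925 (7846 to 8004), 5072 (5010.2 to 5135) and 4987 CPM (4920.0 to 5055). The intervals of NK cell-like cells did not overlap between libraries, whereas the high-fat diet and CCl4 values of T cell-like cells overlapped. This falling order turned round with free RNA taken off, where the ratios of the high-fat diet and CCl4 libraries to the control were 1.21 and 1.39 in NK cell-like and 1.38 and 1.93 in T cell-like cells. On that scale the marker genes of these classes had median ratios of 0.812 and 0.83 in NK cell-like and 0.988 and 1.32 in T cell-like cells. T cell-like cells held 45.9%, 77.3% and 66.2% of all Ccl5 UMIs of their libraries. Ccl6 and Ccl9, rodent ligands of Ccr1, were carried by myeloid cells. In basophil-like cells Ccl6 stood at 2436 (2279.9 to 2599), 1504 (1246 to 1800.1) and 1324 CPM (973 to 1761), in classical monocyte-like cells at 1031, 541 and 618 CPM and in neutrophil-like cells at 715, 499 and 502 CPM. For Ccl9 the basophil-like values were 1035 (934 to 1143), 619 (458 to 819) and 394 CPM (216 to 662) and the classical monocyte-like values 423, 279 and 249 CPM. Ccl9 was also present in hepatocyte-like cells at 88.9, 69.0 and 23.8 CPM, and these cells are so many that they held 57.5%, 44.5% and 51.7% of its UMIs.

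Ccl2, Ccl7, Ccl11 and Ccl24 bind the monocyte receptor Ccr2 or the eosinophil receptor Ccr3. Their sources were mostly stromal cells, macrophages and monocytes. Ccl5, another ligand of Ccr3, had the NK cell-like and T cell-like sources given above. Ccl2, the main monocyte attractant, was at 412 (329 to 510.2), 167 (133 to 207) and 251 CPM (134 to 429.6) in fibroblast-like cells, which numbered only 35, 148 and 17. Classical monocyte-like cells also carried it, at 221 (191 to 254), 108 (94.5 to 123) and 145 CPM (115 to 180.5), and Kupffer cell-like cells at 358 (299.5 to 423), 103 (65.2 to 154) and 35.8 CPM (7.38 to 105). In the fibroblast-like class of the CCl4 library all 13 Ccl2 UMIs lay in at most 5 cells. Ccl7, which shares Ccr2, was carried at 177, 76.6 and 155 CPM in fibroblast-like and 197, 71.6 and 23.9 CPM in Kupffer cell-like cells. Its CCl4 values in these classes rest on 8 and 2 UMIs, and the source called in that library was classical monocyte-like cells, at 25.7 CPM (14.0 to 43.1) from 14 UMIs. Ccl11 (eotaxin) was largely limited to fibroblast-like cells, with 4, 17 and 0 UMIs and 19.6 (5.35 to 50.2), 34.3 (20.0 to 54.9) and 0 CPM (up to 58.0), and was called there only in the high-fat diet library. Ccl24 (eotaxin-2) was a Kupffer cell-like ligand at 147 (111 to 191), 89.5 (54.7 to 138) and 11.9 CPM (0.302 to 66.4). Its intervals overlapped between the control and high-fat diet libraries, and the CCl4 value rested on 1 UMI. Kupffer cell-like Ccl24 lay in few cells, since the 5 highest cells held 94.5% and 90.0% of its UMIs in the control and high-fat diet libraries.

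Dendritic and vascular ligands of the CC group were sparse. Ccl22, which mature dendritic cells release to draw Ccr4-bearing T cells, was found mostly in conventional dendritic cell-like cells, at 485 (319.6 to 706), 15.6 (7.46 to 28.6) and 43.4 CPM (24.8 to 70.4), which held 87.1%, 83.3% and 88.9% of its UMIs. The control value came from 27 UMIs in 11 cells and lay above both others, and all 27 sat in the 5 highest cells. Ccl21a, a lymphatic ligand of Ccr7, was an endothelial cell-like gene at 53.5 (37.1 to 74.8), 16.7 (8.90 to 28.6) and 0 CPM (up to 13.4), but 1 of 144 cells (0.694%) held all 34 UMIs in the control library.

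Cxcl1 and Cxcl2 both attract neutrophils through Cxcr2 and their genes start 12654 bases apart on chromosome 5, yet the cells that carried them differed. Cxcl2 was a myeloid ligand. It reached 3831 (3747 to 3917), 4325 (4185 to 4468) and 1780.3 CPM (1591 to 1985) in neutrophil-like cells, 3049.5, 1785 and 1622 CPM in Kupffer cell-like, 2494, 1615 and 1268 CPM in classical monocyte-like and 2558, 1315 and 1296 CPM in basophil-like cells, and these were sources in all 3 libraries. Neutrophil-like cells held 54.2%, 40.1% and 23.1% of the Cxcl2 UMIs. Hepatocyte-like cells had 16.9, 6.35 and 2.59 CPM of it. Cxcl3, a close relative of Cxcl2, was lower at 49.6 (40.4 to 60.3), 53.6 (39.1 to 71.7) and 22.0 CPM (6.01 to 56.5), again in neutrophil-like cells. Cxcl1 had no source in any library by the 4-fold rule, which hepatocyte-like cells could hardly pass. Hepatocyte-like cells, the most numerous class, held 78.5%, 58.3% and 61.5% of its UMIs, at 555 CPM (546 to 564) in the control, 84.7 (80.4 to 89.2) in the high-fat diet and 181 (175 to 187) in the CCl4 library. All 3 intervals lay apart. Cholangiocyte-like cells reached 575 (523 to 631), 194 (161 to 233) and 287 CPM (248 to 329.5) and fibroblast-like cells 118, 216 and 367 CPM, so the hepatocyte-like class held most UMIs without the highest level per UMI. A Cxcl1 UMI was seen in 74.5%, 17.4% and 31.3% of hepatocyte-like cells, whose median depths were 3806, 2293 and 2286 UMIs, and in 36.2%, 7.14% and 13.7% when each cell was thinned to 1000 UMIs. By cluster, hepatocyte-like Cxcl1 ran from 47.4 CPM to 738 CPM, and the 3 clusters mostly of the control library had 738, 689 and 396 CPM.

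The promoters of both genes are shown because Cxcl1 and Cxcl2 are textbook targets of NF-kB, the inflammatory transcription factor, and differ here in the cells that carry them. The sequences are from RefSeq (GRCm38.p6), run 5′ to 3′ over the 250 bases before the start of the gene on its own strand (plus for both), at chr5:90890995-90891244 and chr5:90903649-90903898, with matches to GGGNNTTTCC on either strand in capitals.
Cxcl1: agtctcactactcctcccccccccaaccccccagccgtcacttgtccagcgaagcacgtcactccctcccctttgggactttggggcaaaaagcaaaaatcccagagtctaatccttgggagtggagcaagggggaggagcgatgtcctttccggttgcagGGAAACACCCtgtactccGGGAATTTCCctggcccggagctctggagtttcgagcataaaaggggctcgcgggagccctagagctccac
Cxcl2: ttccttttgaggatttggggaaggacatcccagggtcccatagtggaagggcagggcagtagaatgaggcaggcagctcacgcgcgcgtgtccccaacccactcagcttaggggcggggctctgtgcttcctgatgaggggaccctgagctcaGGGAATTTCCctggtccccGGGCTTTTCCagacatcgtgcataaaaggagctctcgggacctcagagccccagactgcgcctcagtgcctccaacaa
Cxcl1 holds 2 matches, the nearer one 71 bases before the start and the other, on the opposite strand, 89 bases before it. Cxcl2 also holds 2, at 97 and 78 bases before its start, and the same 10 letters GGGAATTTCC occur in both. Of 43 members with a listed promoter, 5 of 28 ligands (17.9%) and 1 of 15 receptors held this motif, against 464 of all 32851 promoters (1.41%). Members were counted per gene, by a match in any of its promoters, and the total per promoter, so the shares differ in unit. A match is a description of letters and not evidence of binding.

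Cxcl9 and Cxcl10 draw Cxcr3-bearing lymphocytes and are known as interferon-induced ligands. Cxcl10 was led by endothelial cell-like cells at 389 (342 to 440.3), 389.6 (347 to 436) and 392 CPM (315 to 483). The values were nearly equal as counted, with intervals that overlapped throughout. They were, with free RNA taken off, 1.83 and 2.00 times the control level (CPM plus 5), the latter past the 2-fold line. Endothelial marker genes had median ratios of 1.45 and 1.13 on that scale. Moreover, the CCl4 value depended on the cells assigned to the class and ranged from 164 to 396 CPM over the alternatives (81 cells). Fibroblast-like cells held 255, 151 and 155 CPM and classical monocyte-like cells 70.7 (54.4 to 90.5), 131 (116 to 147) and 211 CPM (174 to 253), where the control interval lay below both others. In hepatocyte-like cells Cxcl10 stood at 50.6 (48.0 to 53.3), 4.49 (3.54 to 5.61) and 6.40 CPM (5.35 to 7.60), highest in the control library. Cxcl9 was found in endothelial cell-like cells at 116 (91.4 to 146), 83.6 (64.5 to 107) and 218 CPM (162 to 289) and in Kupffer cell-like cells at 197, 107 and 47.7 CPM, where the 5 highest cells held 93.2% of the control UMIs. Among endothelial cell-like values, which leave out the unnamed cluster with Cdh5, the CCl4 interval lay above both others. The promoters of both are printed because they share a cell source here and both respond to interferon. They lie on the minus strand at chr5:92328080-92328329 and chr5:92348890-92349139 (RefSeq, GRCm38.p6), with matches to GAAANNGAAA, the core of interferon-stimulated elements, in capitals.
Cxcl9: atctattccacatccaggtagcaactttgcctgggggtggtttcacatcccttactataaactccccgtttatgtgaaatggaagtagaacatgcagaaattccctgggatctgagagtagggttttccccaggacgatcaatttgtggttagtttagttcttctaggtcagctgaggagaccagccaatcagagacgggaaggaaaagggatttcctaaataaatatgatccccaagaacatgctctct
Cxcl10: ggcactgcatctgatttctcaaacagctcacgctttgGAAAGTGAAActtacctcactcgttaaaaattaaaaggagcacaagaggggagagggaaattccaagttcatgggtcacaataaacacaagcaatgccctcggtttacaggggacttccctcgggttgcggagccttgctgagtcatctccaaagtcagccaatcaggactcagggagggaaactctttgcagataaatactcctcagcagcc
Cxcl10 holds 1 match, 213 bases before the start, and Cxcl9 holds none in this window. The motif, searched on both strands, is in a promoter of 3 of 28 ligand genes and of 0 of 15 receptor genes. Counted per promoter, it is in 978 of all 32851 (2.98%).

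Homeostatic and membrane-bound ligands were spread over stroma, macrophages, bile duct and lymphocytes. Cxcl12, the ligand of Cxcr4 that stromal cells make to retain leukocytes, was at 1501 (1338 to 1679), 675 (605 to 752) and 792 CPM (569 to 1075) in fibroblast-like cells, with the control interval above both others. This order did not hold for the high-fat diet value, which ran from 675 to 2653 CPM over the alternatives and stood at 2653 CPM when each library was clustered on its own, against 1514 CPM for the control. The CCl4 value, from 17 cells, ran from 601 to 1241 CPM. Hepatocyte-like cells had 84.7, 113 and 128 CPM of Cxcl12, and by the rule they never qualified as a source of any ligand. Cxcl14, whose receptor is not settled, was a fibroblast-like ligand at 54.0 (26.9 to 96.6), 24.2 (12.5 to 42.3) and 0 CPM (up to 58.0), and Kupffer cell-like cells were also a source in the control library at 37.4 CPM (20.4 to 62.7). Cxcl13, which draws Cxcr5-bearing B cells, stood out in Kupffer cell-like cells of the high-fat diet library. Its levels there were 21.3 (9.21 to 42.1), 890.3 (771 to 1023) and 0 CPM (up to 35.8), from 8, 199 and 0 UMIs in 73, 84 and 31 cells. The high-fat diet interval lay above both others, although it fell as far as 340 CPM over the alternatives. In that library 45.2% of Kupffer cell-like cells had a Cxcl13 UMI and the 5 highest held 57.8% of the UMIs. The gene was also seen at 13.9 CPM in hepatocyte-like, 15.8 in T cell-like and 11.2 in classical monocyte-like cells of the same library. The CCl4 library had 271 CPM of it in fibroblast-like cells, all 14 UMIs in at most 5 cells.

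Cxcl16, a transmembrane ligand of Cxcr6, had sources in several lineages. Kupffer cell-like cells led with 237 (191 to 292), 192 (139 to 259) and 203 CPM (118 to 325), cholangiocyte-like cells held 97.2 (76.6 to 122), 58.8 (41.2 to 81.5) and 33.3 CPM (21.1 to 50.0), and conventional dendritic cell-like cells 198, 76.2 and 117 CPM. The Kupffer cell-like intervals overlapped between all libraries, but the high-fat diet value came down to 60.2 CPM and the CCl4 value to 125 CPM over the alternatives. Endothelial cell-like cells were a source in the control and high-fat diet libraries (78.7 and 87.4 CPM). Cx3cl1 (fractalkine), the membrane-bound ligand of Cx3cr1, was a cholangiocyte-like gene at 38.4 (25.9 to 54.8), 19.6 (10.1 to 34.3) and 1.45 CPM (0.0367 to 8.07), the CCl4 value resting on 1 UMI in 216 cells. Xcl1, which NK and T cells release to attract Xcr1-bearing dendritic cells, stood at 384 (355 to 415), 492 (414 to 579) and 703 CPM (653 to 754) in NK cell-like cells. As counted, the order of libraries is the reverse of that of Ccl5, but with free RNA taken off both genes had ratios to the control above 1, for Xcl1 2.33 and 6.40. When each library was clustered on its own, however, NK cell-like Xcl1 was 879 CPM in the control and 1118 CPM in the high-fat diet library, so the order of the libraries depends on which cells are called NK cell-like. T cell-like cells were a further Xcl1 source in the high-fat diet library, at 317 CPM against 188 CPM in the control library. They held 1588 of the 2123 Xcl1 UMIs of the high-fat diet library. An unnamed cluster of 538 cells led by Cd7 and Klrb1b, 534 of them from the control library, held Xcl1 at 1663 CPM, and also Cxcr3 and Cxcr6 above every named class.

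No source was found in any library for 20 ligands, by a rule that hepatocyte-like cells could hardly pass. Besides Cxcl1 and the 7 ligands and pseudogenes at 0 UMIs, these were Ccl1, Ccl8, Ccl12, Ccl17, Ccl19, Ccl20, Ccl25, Ccl27a, Ccl28, Cxcl5, Cxcl11 and Cxcl17. Ccl27a, a ligand of Ccr10, was low in hepatocyte-like cells, at 10.1 (8.95 to 11.4), 17.4 (15.5 to 19.5) and 22.9 CPM (20.8 to 25.0), with intervals that did not overlap. Ccl25, the ligand of Ccr9, had 5.88 (5.00 to 6.86), 4.72 (3.75 to 5.87) and 4.45 CPM (3.58 to 5.46) in the same cells. Cxcl5, another ligand of Cxcr2, had 4, 0 and 0 UMIs there. For Ccl17, Ccl19, Ccl20 and the other sparse ligands, absence cannot be told from levels under the detection limit.

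**Figure D2:**
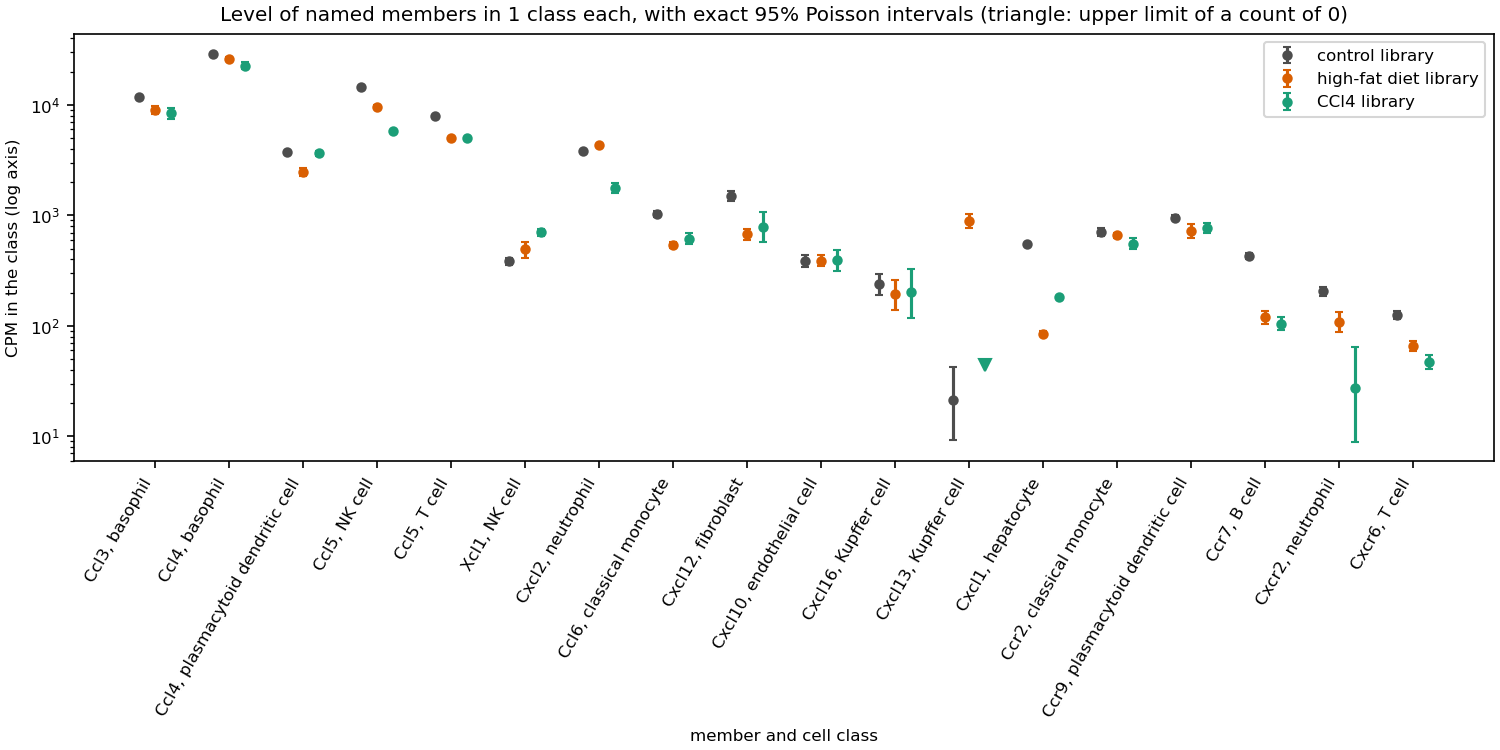
CPM with exact Poisson 95% intervals (log axis) of selected combinations of a member and a class, 1 point per library. The class shown is not always the one with the highest level of the member. Cxcl1 in hepatocyte-like cells was 555, 84.7 and 181 CPM, and Cxcl13 in Kupffer cell-like cells stood apart in the high-fat diet library at 890 CPM.

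Receptors were far less abundant than ligands, and several, such as Ccr2, Ccr7 and Cxcr4, had bearers in more than 1 lineage. Among myeloid receptors, Ccr2, which lets monocytes leave the bone marrow and enter tissue, was led by classical monocyte-like cells at 705 CPM (651 to 762) in the control, 663 (629 to 699) in the high-fat diet and 555 (495 to 622) in the CCl4 library. The control and high-fat diet intervals overlapped, and the CCl4 interval lay below both. The direction turned with free RNA taken off, at ratios of 1.59 with the high-fat diet and 1.67 with CCl4. A Ccr2 UMI was found in 83.7%, 81.2% and 69.5% of classical monocyte-like cells, whose median depths were 3985, 2836 and 2461 UMIs, against 0.526%, 0.22% and 0.142% of hepatocyte-like cells at the depths given above. Ccr1, a receptor of Ccl3, Ccl5, Ccl6 and Ccl9, was at 292 (269 to 316), 138 (114 to 166) and 60.6 CPM (30.3 to 108) in neutrophil-like and 177 (151 to 207), 66.4 (55.9 to 78.3) and 34.8 CPM (21.0 to 54.4) in classical monocyte-like cells. In both classes the 3 intervals fell in the order of control, high-fat diet and CCl4, and none of them overlapped. Cxcr2, the receptor of Cxcl1 and Cxcl2, was at 206 (187 to 227), 108 (87.3 to 133) and 27.6 CPM (8.95 to 64.3) in neutrophil-like cells. They led in the control and high-fat diet libraries, whereas the CCl4 value came from 5 UMIs in 88 cells, too few to call a lead. These cells held 81.2%, 86.7% and 55.6% of its UMIs, and basophil-like cells were a further bearer in the control library at 64.2 CPM (41.1 to 95.5). Cxcr1, the other neutrophil receptor, had no bearer. Cx3cr1 marks patrolling monocytes and some macrophages. It was at 179.8 (98.3 to 302), 160.0 (142 to 179.8) and 68.0 CPM (8.23 to 246) in nonclassical monocyte-like cells and at 213 (169 to 266), 166 (117 to 228) and 179 CPM (100.1 to 295) in Kupffer cell-like cells, with intervals that overlapped between libraries in both classes. The CCl4 nonclassical value rests on 2 UMIs in 14 cells and ran from 58.5 to 209 CPM over the alternatives. Cxcr4, the receptor of Cxcl12, was borne by nonclassical monocyte-like cells at 462 (324 to 640.0), 179 (160.0 to 200.1) and 374 CPM (187 to 669) and, in the control library, by basophil-like cells at 850.2 CPM (759 to 949), where the other libraries had 88.5 and 141 CPM. Kupffer cell-like cells were also a bearer in the control library, at 400 CPM. Without being called, NK cell-like, B cell-like and neutrophil-like cells there held 329, 314 and 310 CPM. In the CCl4 library neutrophil-like, classical monocyte-like and conventional dendritic cell-like cells were further bearers.

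**Figure D3:**
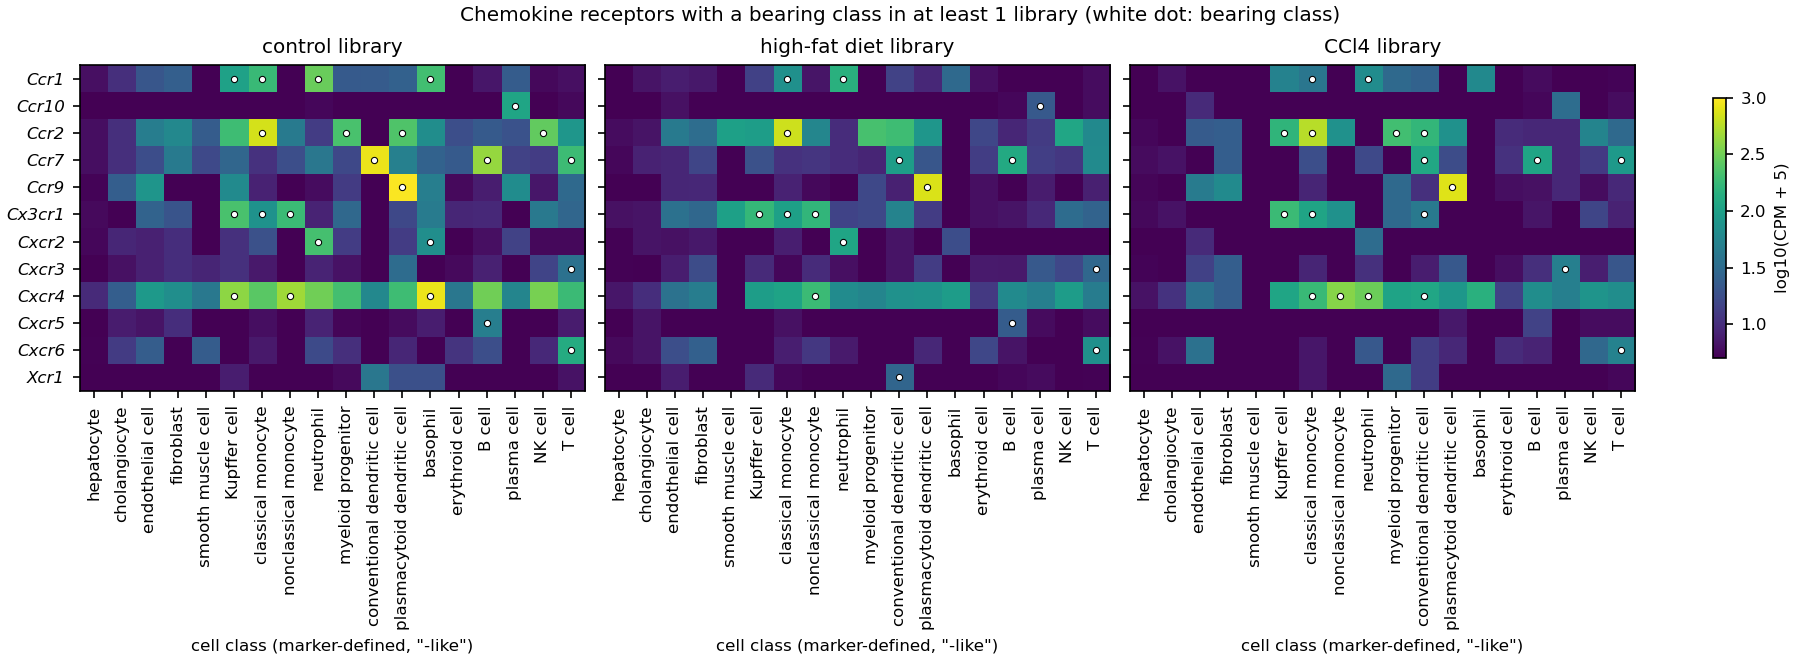
Level of receptors with a bearing class in at least 1 library (rows) in each cell class (columns), 1 panel per library, as log10 of CPM plus 5 in colour. Ccr2 stood highest in classical monocyte-like cells and Ccr9 in plasmacytoid dendritic cell-like cells in all 3 panels. Cxcr2 stood highest in neutrophil-like cells in the control and high-fat diet panels, and the CCl4 library held only 9 UMIs of it.

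Among receptors of lymphocytes and dendritic cells, Ccr9, the receptor of Ccl25, was largely limited to 1 class. Plasmacytoid dendritic cell-like cells carried 955 (902 to 1010.2), 728 (627 to 842) and 769 CPM (693 to 851), or 80.7%, 82.1% and 86.6% of all its UMIs. A Ccr9 UMI was present in 61.1%, 72.6% and 75.0% of these cells (median depths 3918, 2519 and 2344 UMIs) against at most 0.162% of hepatocyte-like cells in any library. The control level rose to as much as 1614 CPM and the high-fat diet level to 2745 CPM over the alternatives, so the order of the libraries is not fixed. Ccr7, which guides B cells, T cells and mature dendritic cells to lymphoid tissue, stood at 429 (404 to 455), 119.7 (104 to 137) and 105 CPM (92.1 to 119) in B cell-like cells and 186 (174 to 198), 57.8 (51.3 to 64.8) and 81.3 CPM (72.9 to 90.3) in T cell-like cells. Its conventional dendritic cell-like levels were 844 (620.3 to 1123), 90.2 (68.5 to 117) and 114 CPM (82.0 to 154), from only 11 cells in the control library and 216 and 136 in the others. In all these classes the control interval lay above both others. With free RNA taken off, the Ccr7 ratios to the control were 0.677 with the high-fat diet and 1.33 with CCl4 in T cell-like cells. In B cell-like cells they were 0.708 and 0.992. The marker genes had median ratios of 0.988 and 1.32 in T cell-like and 1.17 and 1.47 in B cell-like cells on that scale. Cxcr5, the receptor of Cxcl13, was a B cell-like gene at 43.5 (35.8 to 52.3), 18.5 (12.8 to 25.8) and 9.26 CPM (5.73 to 14.2), with no overlap between the control and the other libraries as counted, and ratios of 1.07 and 0.876 with free RNA taken off. Cxcr6, the receptor of Cxcl16 and a marker of liver-resident lymphocytes, was at 125 (115 to 135), 65.8 (58.8 to 73.3) and 47.1 CPM (40.8 to 54.1) in T cell-like cells, which held 61.3%, 82.9% and 75.8% of its UMIs. Cxcr3, the receptor of Cxcl9 and Cxcl10, was lower, at 31.2 (26.5 to 36.6), 24.4 (20.3 to 29.1) and 15.5 CPM (12.0 to 19.8) in T cell-like cells, and in the CCl4 library plasma cell-like cells were its only bearer at 44.6 CPM from 11 UMIs. Ccr10 marked plasma cell-like cells at 107 (67.6 to 160.0), 16.8 (10.2 to 25.9) and 28.4 CPM (11.4 to 58.5), and Xcr1, a receptor of cross-presenting dendritic cells, was seen in conventional dendritic cell-like cells at 35.9 (4.35 to 129.8), 23.3 (13.1 to 38.5) and 8.13 CPM (1.68 to 23.8). Only the high-fat diet value of Xcr1 was called, and the other values rest on under 10 UMIs each. In the control library plasmacytoid dendritic cell-like cells also held Xcr1, at 13.3 CPM. Apart from Cxcr1, no bearer was found for Ccr1l1, Ccr3, Ccr4, Ccr6 and Ccr8.

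Pairing the ligand sources with the receptor-bearing classes addressed which of the called classes could signal to which. Hepatocyte-like cells enter no pair, since the 4-fold rule called them for no ligand and no receptor. Of 36 ligand-receptor pairs taken from textbook knowledge, 18, 20 and 14 had both a source and a bearer. The same 14 pairs had both in all libraries and 16 had both in none. Cxcl1 with Cxcr2 is among these 16, although hepatocyte-like cells held most Cxcl1 UMIs. A pair shows only that both RNAs were present in the library, not that the cells met or that protein was made. Counting each source, bearer and pair, there were 99, 81 and 82 combinations, and 28 of them occurred in all 3 libraries, with no background count computed. Among these, Ccl2 linked classical monocyte-like and fibroblast-like sources to Ccr2 on classical monocyte-like cells. Ccl3, Ccl6 and Ccl9 of basophil-like cells met Ccr1 on classical monocyte-like and neutrophil-like cells, and the Ccl5 of NK cell-like and T cell-like cells met the same Ccr1 bearers. Cxcl12 of fibroblast-like cells was paired with Cxcr4 on nonclassical monocyte-like cells. Cxcl16 of Kupffer cell-like, cholangiocyte-like and conventional dendritic cell-like cells was paired with Cxcr6 on T cell-like cells. Cxcl2 with Cxcr2 on neutrophil-like cells had both sides in the control and high-fat diet libraries but not in the CCl4 library, where Cxcr2 was under 10 UMIs. In 8, 8 and 10 pairs, at least 1 class was both source and bearer, as for Ccl2 and Ccr2 in classical monocyte-like cells.

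**Figure D4:**
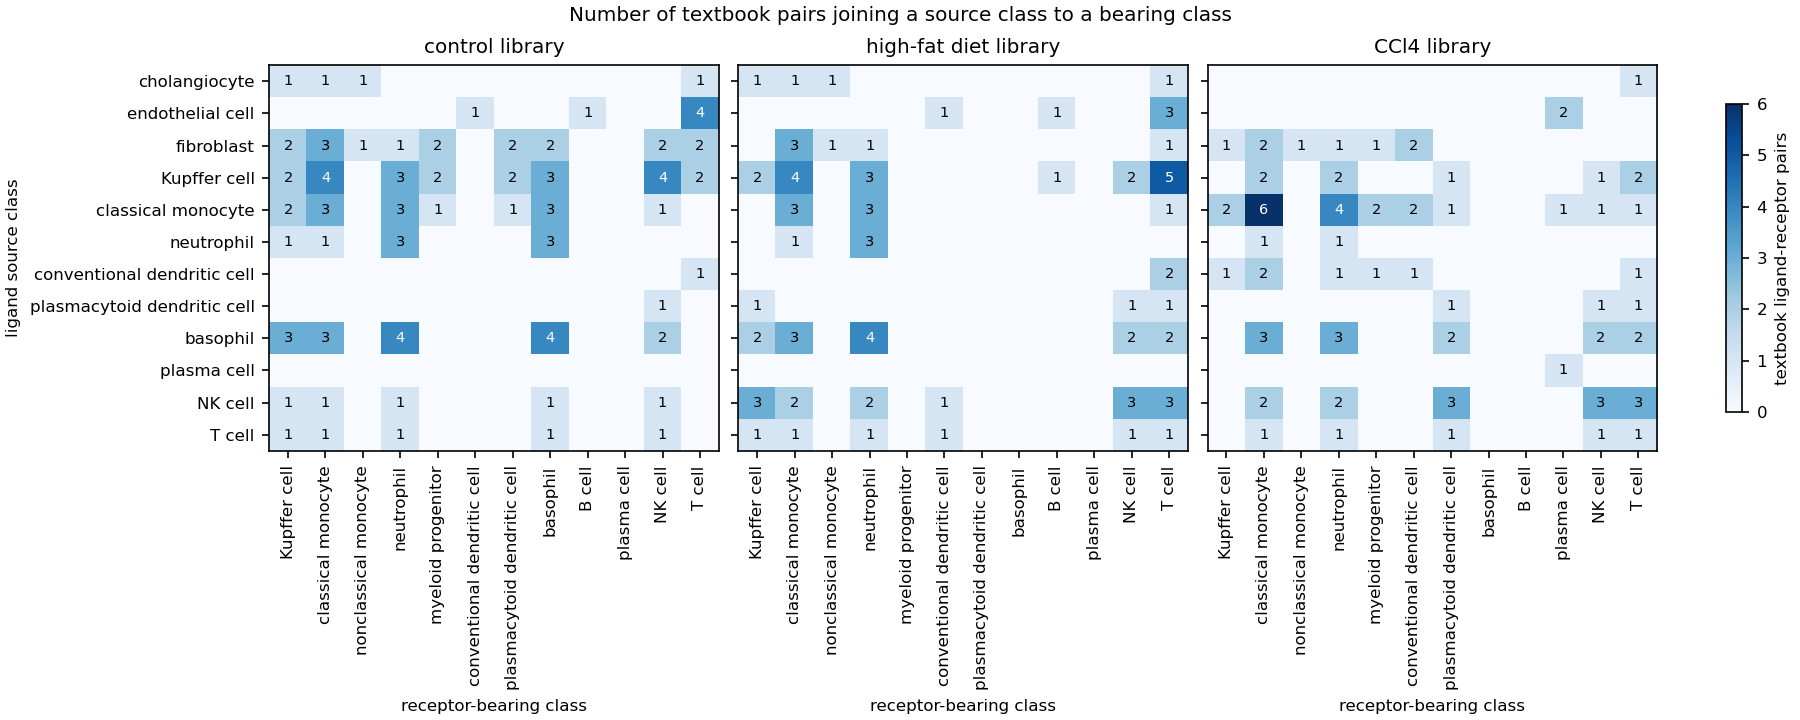
Number of ligand-receptor pairs that join a source class (rows) to a receptor-bearing class (columns), 1 panel per library. The panels hold 52, 43 and 49 class combinations with at least 1 pair, and 23 of these combinations are filled in all 3. Hepatocyte-like cells are in no panel, since the source rule called them for no member.

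Each treated library was then set against the control library, class by class, for classes with at least 50 cells in both and members with at least 20 UMIs in either. A member was past the fold where the ratio of CPM plus 5 was at least 2 or at most its inverse, and ratios printed below are of CPM with exact 95% intervals for counting error. Both comparisons use the same control. With the high-fat diet, 213 combinations of 37 members and 12 classes were compared. Of these 13 were higher and 88 lower, or 41.3% lower, against 6.92% higher and 13% lower among all genes. The median ratio of the members was 0.608 and of all genes 0.873. After hepatocyte free RNA was taken off each class, 29 were higher and 46 lower (all genes 7.15% and 15.7%), and relative to the change of the class's own marker genes 32 were higher and 44 lower (all genes 23.6% and 3.82%). In the CCl4 library 171 combinations of 35 members and 10 classes gave 10 higher and 77 lower, or 45.0% lower, against 7.48% and 19.3% among all genes. Its median ratio was 0.547 for the members and 0.799 for all genes. With free RNA taken off, 35 were higher and 30 lower (all genes 10.3% and 21.7%), and relative to own markers 41 and 24 (all genes 35.5% and 3.08%). In the high-fat diet comparison lower combinations of members thus outnumbered higher ones on each scale, by margins that differed. In the CCl4 comparison the balance of the members turned round with the scale. Among all genes, lower outnumbered higher in both comparisons as counted and with free RNA taken off, but not relative to own markers. Only directions that hold on each scale are called kept below. As counted, own markers themselves fell, to a median of 0.468 and 0.368 times the control level in B cell-like cells, 0.472 and 0.455 in T cell-like cells and 0.45 and 0.246 in NK cell-like cells, while the hepatocyte free RNA ratio of the libraries was 0.44, 0.779 and 0.863 in B cell-like, 0.312, 0.682 and 0.776 in T cell-like and 0.331, 0.635 and 0.81 in NK cell-like cells.

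**Figure D5:**
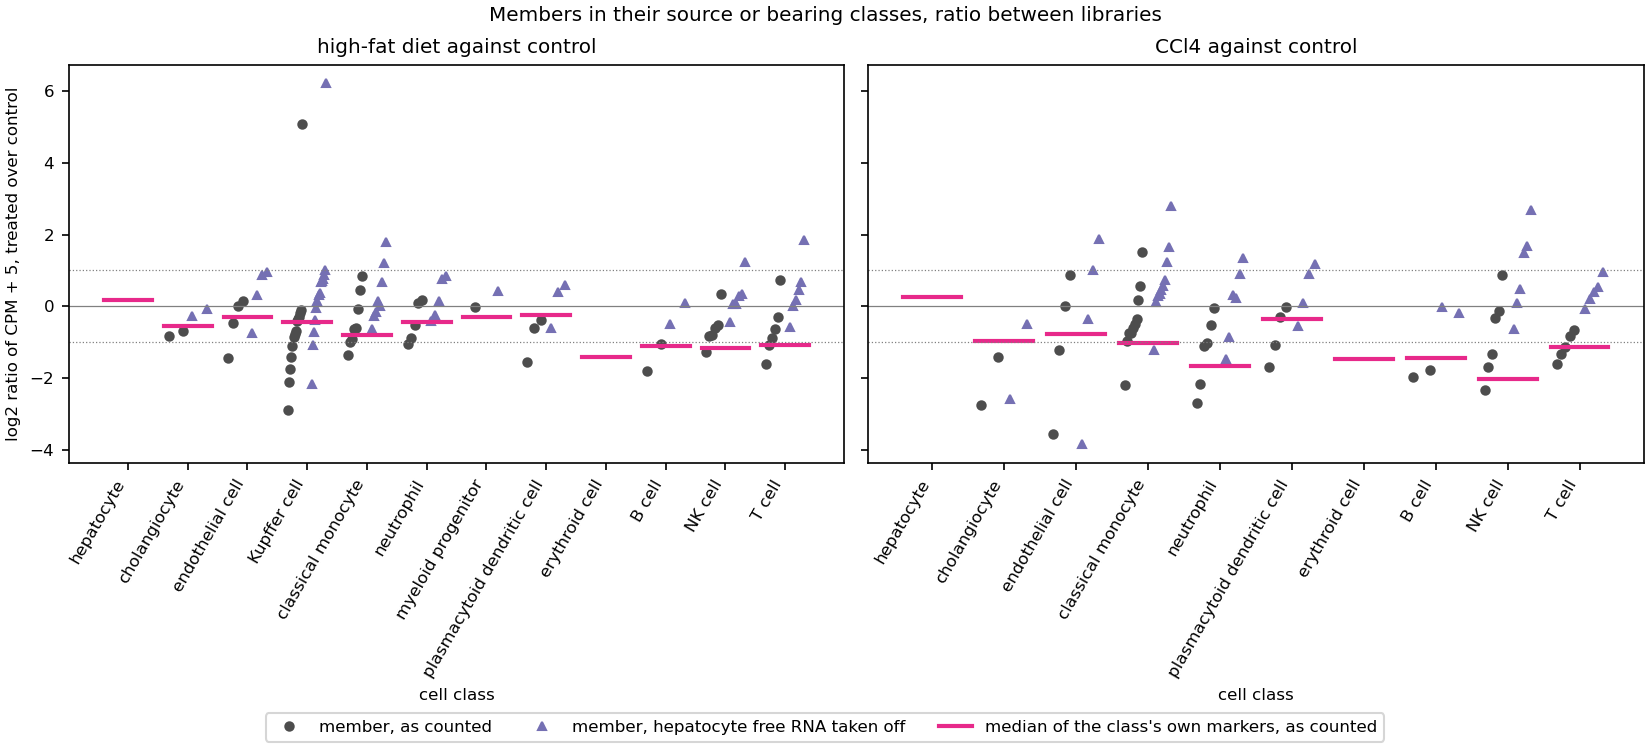
Log2 ratio of CPM plus 5 in the high-fat diet (left) and CCl4 library (right) to the control library for each member in its source or bearing classes (circles), the same with hepatocyte free RNA taken off (triangles) and the median ratio of the class's own markers (bars). Of 51 and 39 circles, 15 and 19 lie at or below the lower dotted line of a 2-fold change, against 2 and 4 triangles, and Cxcl13 in Kupffer cell-like cells stands highest on the left. The combinations shown were picked by a high level in either library, and no share over all genes was computed for them.

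By class, the share of members past the fold was set beside that of all genes in the same class. In the high-fat diet library plasmacytoid dendritic cell-like cells had the highest share, where 12 of 18 members were lower, beside 21.2% of all genes, followed by neutrophil-like cells, where 11 of 18 members were lower, beside 11.6% of all genes, and B cell-like cells, where 11 of 19 members were lower, beside 15.2% of all genes. Hepatocyte-like cells lay lowest, where 3 of 24 members were lower, beside 2.78% of all genes. In erythroid cell-like cells 3 of 11 members were higher and as many lower, beside 12.5% and 29.8% of all genes. In the CCl4 library the share was again highest in plasmacytoid dendritic cell-like cells, where 11 of 18 members were lower, beside 24.6% of all genes, and in T cell-like cells 13 of 22 members were lower, beside 19.3% of all genes. Classical monocyte-like cells had the lowest share, where 3 of 17 members were lower, beside 15% of all genes.

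The largest ratios in the high-fat diet comparison were mostly of members in classes that are not their sources, since only 3 of the 30 largest lay in a source class. These 3 were in Kupffer cell-like cells. Cxcl13 was 41.7 (20.8 to 98.0) times its control level, Ccr1 moved from 98.7 to 8.95 CPM and Cxcr4 from 400.2 to 89.5 CPM. Both receptors stayed past the fold with free RNA taken off, at ratios of 0.223 and 0.474. Cxcl13 went from 0 UMIs to 79 in T cell-like and 29 in B cell-like cells, at least 25.9-fold and 13.5-fold higher against a floor of 3 UMIs, with exact intervals of the ratio that begin at 20.6 and 10.3. These levels, 15.8 and 15.8 CPM, were close to those of hepatocyte-like and classical monocyte-like cells given above and far under the Kupffer cell-like level, and the part of Kupffer cell-like RNA in them was not tested. In hepatocyte-like cells Cxcl1 was 0.153 (0.144 to 0.161) times and Cxcl10 0.0887 (0.0696 to 0.112) times the control level, and serum amyloid A moved with them (40171 and 1022 CPM summed), as did the immediate-early and stress list (3817 and 2053 CPM). The part of either list in these differences was not tested. Cxcl1 was also lower in NK cell-like, neutrophil-like, B cell-like and endothelial cell-like cells, but with free RNA taken off it was left at 0 in both libraries in the NK cell-like, neutrophil-like and B cell-like classes. Cxcr4 was lower past the fold in 10 of 11 classes as counted and in 6 with free RNA taken off. It went from 314 to 58.8 CPM in B cell-like, from 310.0 to 59.6 CPM in neutrophil-like and from 179 to 41.4 CPM in T cell-like cells, and stayed past the fold with free RNA taken off in these 3, with ratios of 0.469, 0.308 and 0.498. With free RNA taken off the ratio was 0.698 in classical monocyte-like and 0.743 in plasmacytoid dendritic cell-like cells, no longer past it. Relative to own markers the T cell-like ratio was 0.534 and the NK cell-like ratio 0.628, also no longer past it.

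The other large ratios of that comparison concerned members outside their source classes. Ccl5 in neutrophil-like cells went from 1329 to 155 CPM, and Xcl1 and Ccr7 in the same class from 65.3 to 10.7 CPM and from 35.9 to 4.77 CPM. In endothelial cell-like cells Ccl3 went from 599.5 to 69.4 CPM, Ccl4 from 1671 to 387 CPM, Ccl6 from 203 to 50.1 CPM and Ccr9 from 74.0 to 3.86 CPM. Cholangiocyte-like cells had less Ccl2, from 43.5 to 0 CPM (up to 4.90), and Cxcl2, from 240.4 to 45.8 CPM. Plasmacytoid dendritic cell-like cells had less Ccl6, from 112 to 3.96 CPM, and Cxcl16, from 29.7 to 0 CPM (up to 11.9). Ccr9 also fell in Kupffer cell-like cells (from 58.7 to 0 CPM (up to 13.4)) and T cell-like cells (from 25.6 to 3.00 CPM), Ccr1 in myeloid progenitor-like cells (from 17.5 to 0 CPM (up to 10.9)) and Ccl25 in NK cell-like cells (from 29.8 to 3.44 CPM). Of the 30 largest ratios, 27 stayed past the fold in the same direction with free RNA taken off. That subtraction removes hepatocyte-like RNA alone. It cannot remove RNA of other classes or doublets, and their part in these ratios was not tested. Within the source classes of each member, 51 combinations were compared, of which 1 was higher and 15 lower, or 6 and 2 with free RNA taken off. These were picked by a high level in either library. The share of all genes was computed only over all compared classes, at 6.92% higher and 13% lower, or 7.15% and 15.7% with free RNA taken off.

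In the CCl4 comparison 8 of the 30 largest ratios lay in a source class. Cxcr2 in neutrophil-like cells was 0.134 (0.0432 to 0.315) times and Ccr1 0.208 (0.103 to 0.374) times the control level, where own markers stood at 0.319 times. With free RNA taken off the ratios were 0.364 for Cxcr2, still past the fold, and 0.558 for Ccr1, no longer past it. Ccr1 in classical monocyte-like cells was 0.196 (0.115 to 0.317) times the control level and kept its direction on every scale. Ccr7 and Cxcr5 in B cell-like cells were 0.245 (0.212 to 0.282) and 0.213 (0.127 to 0.342) times, and Ccr2 in NK cell-like cells 0.183 (0.135 to 0.242) times the control level. None of these 3 was past the fold relative to own markers, or with free RNA taken off, where the ratios were 0.992, 0.876 and 0.643. Cx3cl1 in cholangiocyte-like cells went from 38.4 to 1.45 CPM and Ccl21a in endothelial cell-like cells from 53.5 to 0 CPM (up to 13.4), both kept on every scale. The control Ccl21a UMIs came from 1 cell. In hepatocyte-like cells Cxcl10 was 0.127 (0.105 to 0.151) times the control level, and Cxcl1, at 0.326 (0.314 to 0.338) times, was also past the fold. Serum amyloid A summed to 40171 CPM in the control and 301 CPM in the CCl4 library in these cells. The immediate-early and stress list hardly moved there, at 3817 and 3699 CPM. The part of either list in these differences was not tested.

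Only 3 of these 30 ratios were higher. Ccl27a in NK cell-like cells went from 3 to 28 UMIs, 14.2 (4.39 to 73.0) times the control level, or from 1.83 to 25.9 CPM. Hepatocyte-like cells of the CCl4 library held 22.9 CPM of it, and the free RNA ratio of NK cell-like cells there was 0.81. With free RNA taken off the levels were 0 and 38.9 CPM, still past the fold but resting on few UMIs. Cxcl12 was higher in classical monocyte-like cells, from 14.6 to 73.3 CPM, and in erythroid cell-like cells, from 24.1 to 107 CPM, but with free RNA taken off none was left in either library. Below the 30, Cxcl10 in classical monocyte-like cells was 2.98 (2.17 to 4.12) times the control level, a value chosen after the ratios were seen. It came from few cells, as the 5 highest of 213 held 67.8% of its UMIs, and the CCl4 level went down to 132 CPM over the alternatives. The remaining ratios were lower. Plasmacytoid dendritic cell-like cells had less Ccl6 (from 112 to 0 CPM (up to 6.14)), Cxcl2 (from 105 to 0 CPM (up to 6.14)), Ccl9 (from 84.3 to 16.4 CPM), Cxcl10 (from 35.9 to 4.09 CPM), Cxcl16 (from 29.7 to 2.05 CPM) and Ccr1 (from 21.1 to 0 CPM (up to 6.14)). Endothelial cell-like cells had less Ccl3 (from 599.5 to 75.8 CPM), Ccl6 (from 203 to 22.3 CPM) and Cxcl2 (from 271 to 71.3 CPM), and cholangiocyte-like cells less Ccl2 (from 43.5 to 1.45 CPM) and Cxcl2 (from 240.4 to 34.8 CPM). Among lymphocytes, Cxcr4 went from 314 to 62.2 CPM in B cell-like and from 329 to 73.1 CPM in NK cell-like cells, Ccl4 from 353 to 102 CPM in B cell-like cells, and Cx3cr1 and Ccl3 from 23.9 to 3.30 CPM and from 202 to 57.2 CPM in T cell-like cells. With free RNA taken off the Cxcr4 ratios were 0.797 and 0.775, the Ccl3 ratio 0.858 and the Ccl4 ratio 1.14, so none of these 4 was past the fold and Ccl4 turned round. Cx3cr1 stayed past it at 0.448. None of the 5 was past the fold relative to own markers. Xcl1 in classical monocyte-like cells went from 30.3 to 3.67 CPM. With free RNA taken off 18 of the 30 stayed past the fold in the same direction. Here too RNA of other classes and doublets stay in, and their part was not tested. Within source classes, 39 combinations gave 1 higher and 19 lower, or 10 and 4 with free RNA taken off. They too were picked by a high level in either library. All genes over all compared classes gave 7.48% higher and 19.3% lower, or 10.3% and 21.7% with free RNA taken off.

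Genes that handle chemokines or pass on their signal were read from lists outside the member rule. Pf4 and Ppbp, platelet chemokines named outside the pattern, were led in the control library by erythroid cell-like cells at 2580.0 and 204 CPM, and no class was named as platelets. Of the 6 atypical and scavenging receptors, which bind chemokines without classical signalling, 4, 4 and 2 had a bearing class. Gpr182, a scavenger of sinusoidal endothelium, stood at 689, 474 and 285 CPM in endothelial cell-like cells, and Ccrl2 at 269, 246 and 203 CPM in Kupffer cell-like cells. Endothelial cell-like cells held 438 of 613, 369 of 482 and 64 of 119 Gpr182 UMIs. They leave out the unnamed cluster with Gpr182 among its leading genes, of 2, 53 and 79 cells. Of 12 comparisons of these receptors with the high-fat diet library 2 were lower and none higher, and of 10 with the CCl4 library 4 were lower and none higher, beside 13% and 19.3% lower among all genes. The 14 genes of receptor signalling, such as Gnai2, a Gi subunit, and Rgs1, which ends Gi signals, gave 33 of 144 comparisons lower and none higher in the high-fat diet library, and 55 of 120 lower and none higher in the CCl4 library. Among all genes 13% and 19.3% were lower and 6.92% and 7.48% higher. The list counts are given as counted only, a scale on which own markers of B, T and NK cell-like cells fell as well. Of the chemokine-processing genes Dpp4, Adam10 and Adam17, 2 of 34 comparisons were higher and 6 lower in the high-fat diet library, and 1 of 29 higher and 6 lower in the CCl4 library, beside the same shares of all genes.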

How the data were processed

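Each library was made with a 10x Genomics 3′ kit from the pooled liver cells of 2 mice. The authors counted UMIs per gene and barcode with Cell Ranger (version 7.2.0 in the file headers), and the deposited values are these raw counts, filtered to cell barcodes and not normalized. The study's methods name mm10 and the submitters' processing notes name GRCm39, so no coordinate was taken from the count files. The filters asked for 500 UMIs, 200 genes and no more than 30% mitochondrial UMIs, and left 36926 of 36990 barcodes. Scrublet marked only 25 barcodes, so doublet removal did not work and doublets remain. With scanpy 1.11.5, each cell was normalised to a total of 10000, logarithms were taken, and 2000 variable genes without the members, 30 principal components and 15 neighbours gave 51 Leiden clusters at resolution 1.0. A cluster was named from 21 marker lists where at least 3 markers of 1 list were among its 10 leading genes or, failing that, where at least 3 markers of the best list were raised 1.5 times over the median cluster, and it stayed unnamed where 2 markers of another list were among those 10. By the second way it also stayed unnamed where those 10 held no listed marker and at least 4 predicted genes. The naming rule was set after the clusters were seen and before chemokine values were read. Names were given to 46 clusters, and 5 stayed unnamed, holding 629 control, 169 high-fat diet and 746 CCl4 cells. No cluster was named mesothelial cell, eosinophil or megakaryocyte. Named in the text with values are members with a source or bearing class, the 30 largest ratios per comparison whose interval leaves out 1, and by name alone the rest, except that 1 member is not reported here. The members, gene lists and pairs were chosen with earlier results of these data known. Hepatocyte free RNA was taken off by subtracting, gene by gene, the hepatocyte-like CPM times the free RNA ratio of the class and rescaling. Alternatives changed the filters, the clustering, the source rule, the fold and the scale. The scripts were tested on simulated data. Intervals are exact (Poisson for levels, conditional binomial for ratios) at 95%, cover counting error only, and cannot show the spread between mice.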

Additional observations from a re-analysis of the deposited data

Results flagged for a closer look

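The results below lie in clusters that no marker list named and that the comparisons above therefore left out. Each value is higher than the level of the same gene in every named class of the library that supplied most of the cluster. In a cluster of 676 cells led by Slc8a1 and Gm43361, 663 of them from the CCl4 library, Cxcl1 stood at 735 CPM, against 367 CPM in the highest named class. The same cluster held Cxcl11, a ligand of Cxcr3, at 37.6 CPM against 3.42 CPM. In a cluster of 87 cells led by Gm38070 and Nos1ap, all from the control library, Cxcl1 was at 1841 CPM against 575 CPM, and in one of 109 cells led by Gm45909 and Snhg11, 107 of them from the high-fat diet library, it was at 356 CPM against 216 CPM. A cluster of 538 cells led by Cd7, Klrb1b and Cd160, 534 of them from the control library, held Xcl1 at 1663 CPM against 384 CPM. In that cluster Cxcr3 was at 52.0 CPM against 31.2 CPM and Cxcr6 at 192 CPM against 125 CPM. Differences between these clusters and the named classes were not tested.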

How the results depend on the processing

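Of 186 values of 13 counts over the alternatives, 162 stayed within 1.5 times the main count. With a source set at 8 times all other cells, the high-fat diet library had 13 ligands, 6 receptors and 9 pairs in place of 21, 13 and 20, and the CCl4 library 5 receptors and 5 pairs in place of 9 and 14. With at least 20 UMIs per source the CCl4 library had 6 pairs. The combinations of member and class that were higher in the high-fat diet comparison numbered 13 in the main analysis. They came to 21 without the 8% of barcodes with the highest Scrublet scores, 7 at 3-fold and 8 at 50 UMIs. Those lower, 88, came to 41 at 3-fold. In the CCl4 comparison the higher combinations, 10, came to 19 without those barcodes, 16 with each library clustered on its own, 17 with CPM outside mitochondrial and the 20 most abundant genes, 4 at 3-fold and 5 at 50 UMIs, and the 77 lower ones to 35 at 3-fold. These alternatives were planned, and 3 more were chosen after seeing the data. With hepatocyte free RNA taken off, 29 combinations were higher and 46 lower in the high-fat diet comparison and 35 and 30 in the CCl4 comparison. Relative to the own markers of the class, the counts were 32 and 44, and 41 and 24. Leaving out barcodes that occur in more than 1 library kept every count within 1.5 times. For 54 levels, each of a named member in a class and library, the alternatives gave 533 values. Of these, 381 lay within the counting interval of the main value and 152 outside it. Without the alternative scaling of CPM, 109 of 479 values lay outside. The cause of these shifts was not tested.

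No paired analysis was possible because each group is 1 library. For the same reason no leave-one-out value exists, and the spread between mice is unknown. Classes under 50 cells, and all classes of the shallower libraries, limit what low members can show: a count of 0 UMIs bounds a level and does not show absence.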
